A study of Arabidopsis thaliana with 6 samples.

Results

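The loci described here are 227 rows of a deposited expression table that carry a name given by the authors, Arabidopsis_newGene_ and a number, in place of an Arabidopsis locus identifier beginning with AT. They were taken by that name alone and make up 1.01% of the 22426 loci in the table, of which 22199 have AT identifiers. Each is called here by the end of its name, such as newGene_364. RNA came from whole 2-week-old Arabidopsis thaliana seedlings kept at 22 °C under 16 light hours and 8 dark hours a day, in 3 libraries labelled wild type and 3 labelled NCBP mutant. The protein NCBP belongs to the eIF4E family and binds the cap at the 5′ end of messenger RNA. The labels give no allele, accession or line for either group, no treatment that sets the groups apart, and nothing on whether the replicates were sown apart, so p-values cover the spread of these libraries alone, and it may be technical.

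In RNA sequencing, aligned reads can be joined into transcripts without the help of an annotation, and transcripts that lie outside the annotated genes are then listed as new loci. Such a locus can be a gene missing from the annotation, a long non-coding RNA, an antisense transcript, or a stretch that belongs to a neighbouring gene beyond its annotated end. How the authors decided to add a locus is not stated in the sources used here, nor are the positions, sequences, strands or lengths of these loci. No role, neighbour or coding potential can therefore be given for any of them, and no sequence is printed. The numbers reach 375, and 148 numbers up to that value have no row. Among the nuclear AT loci, 22053 matched the RefSeq annotation of TAIR10.1, and 22047 of these are protein-coding there, so the AT loci used for comparison are almost entirely coding genes.

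The values were FPKM, fragments scaled to transcript length and to the library total, as deposited, with library sums between 970383 and 1040255. Read totals are not given, so the depth behind a value is unknown and the precision of a low value shows only in the spread between replicates. NCBP itself (AT5G18110) stood at 97.4, 100.4 and 97.9 FPKM in wild type, against 57.9, 59.2 and 55.8 FPKM in mutant libraries (limma adjusted p 0.000146). All 5 leaf markers and all 5 root markers checked had a mean FPKM of at least 1, as did 1 of 3 flower markers and 0 of 3 seed markers. Whole seedlings hold many cell types, and fewer cells of a type cannot be told apart from less RNA per cell. The summed FPKM of the root markers lay between 1293 and 1550 in wild type and between 998 and 1155 in the mutant. Between 93.3% and 95.5% of that sum was PYK10, the only one of the 5 that was called (adjusted p 0.0227), and without it the sums were 68.8 to 84.2 and 58.8 to 67.3 FPKM. The part of root tissue in the changes below was not tested.

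The new loci were mostly of low level. Their median FPKM, each taken as the mean over the 6 libraries, was 2.53, with the quartiles at 1.01 and 6.16, while the median of the AT loci was 8.76, with the quartiles at 1.89 and 23.9. A mean between 1 and 5 FPKM was held by 99 new loci (43.6%), against 18.8% of the AT loci. At the upper end, 19 new loci (8.37%) had a mean of at least 20 FPKM, against 29.2% of the AT loci, and 4 had at least 100. The lowest values were a different matter: 56 new loci (24.7%) and 19.4% of AT loci had a mean under 1, yet the lowest of the new loci's highest values in any library was 0.245 FPKM, whereas AT loci reach down to values near 0. These are descriptions of the deposited list, whose rule for inclusion is unknown, and the differences were not tested.

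**Figure D1:**
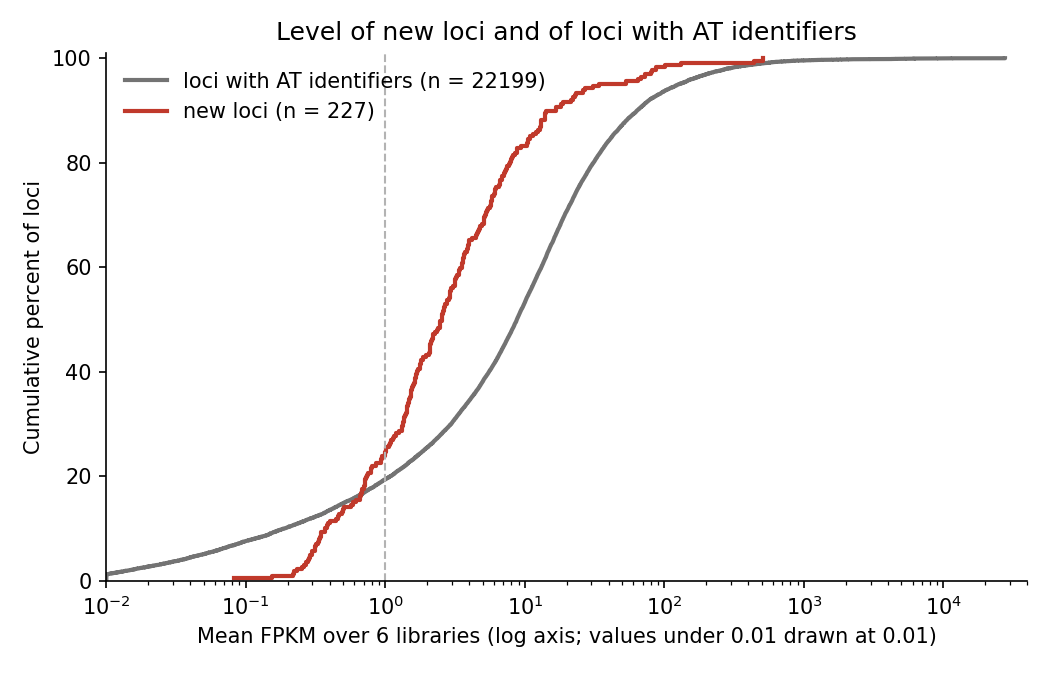
Cumulative percent of loci (y axis) with a mean FPKM over the 6 libraries up to the value on the log x axis, for the 227 new loci (red) and the 22199 loci with AT identifiers (grey); the dashed line marks 1 FPKM. The red curve rises between about 0.2 and 20 FPKM, and its median of 2.53 lies left of the grey median of 8.76.

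Detection was likewise graded. In each library between 164 and 170 new loci (72.2% to 74.9%) reached 1 FPKM, against 79.5% to 80.6% of AT loci, and the median over the new loci lay between 2.34 and 2.65 FPKM per library. All 6 libraries reached 1 FPKM for 138 new loci (60.8%), only some libraries for 55 (24.2%), and no library for 34 (15.0%). The corresponding shares of AT loci were 76.8%, 7.03% and 16.2%. Values listed at 0 were rarer among new loci than AT loci: 7 new loci (3.08%) and 10.2% of AT loci were listed at 0 in at least 1 library. The sets are unlike here. Every new locus reached at least 0.245 FPKM in some library, while 758 AT loci stayed under 0.1 FPKM in every library. A listed 0 can be a failed estimate.

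A few new loci held much of the summed signal. The 227 loci together took 2441, 3390 and 2612 FPKM in wild-type replicates 1, 2 and 3 and 2495, 2518 and 2415 FPKM in mutant replicates 1, 2 and 3, or 0.235% to 0.332% of each library's sum. newGene_203 had the highest mean level, with 300.1, 1144 and 319.8 FPKM in the wild-type libraries and 429, 445 and 399 FPKM in the mutant. Wild-type replicate 2 stood far above the other 5 libraries, and the remaining wild-type libraries lay below all 3 mutant libraries. This locus alone made up 33.8% of the new-locus sum in wild-type replicate 2 and between 12.2% and 17.7% in the other libraries. With it left out, the sums were 2141, 2245 and 2293 FPKM in the wild-type libraries and 2065, 2073 and 2016 FPKM in the mutant. These sums no longer overlapped between the groups. As shares of each library's sum they did overlap, at 0.206%, 0.220% and 0.236% in wild type and 0.211%, 0.208% and 0.202% in the mutant. Neither the sums nor the shares were tested.

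**Figure D2:**
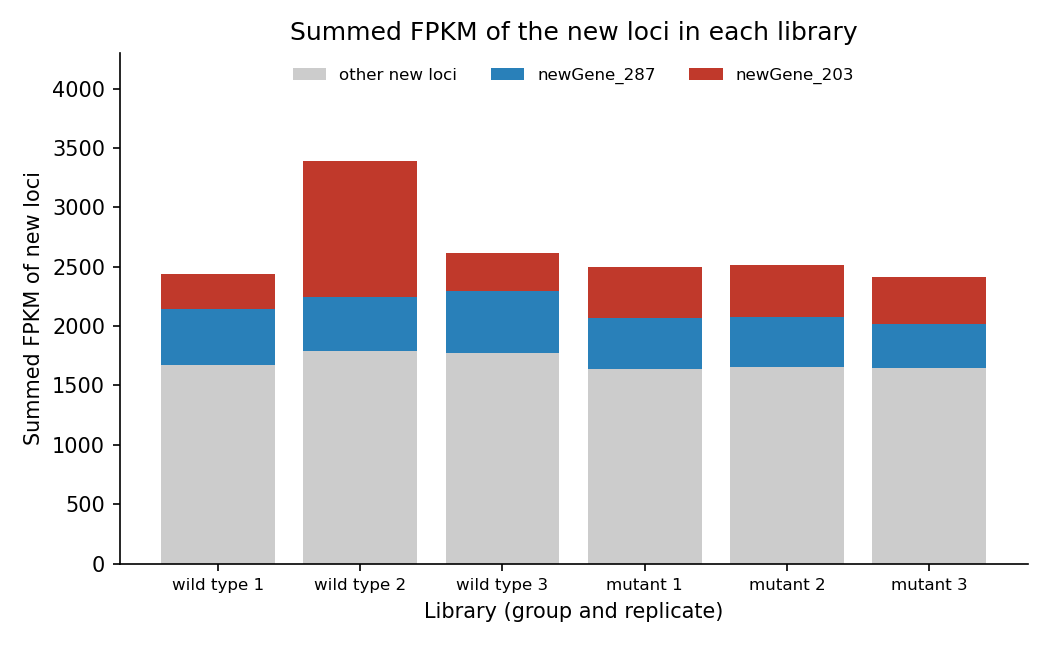
Summed FPKM of the new loci (y axis) in each of the 6 libraries (x axis), with the shares of newGene_203 (red), newGene_287 (blue) and the other new loci (grey) stacked. The bar of wild-type replicate 2 reaches 3390 FPKM because its newGene_203 part, 1144 FPKM, is larger than in any other library, and the other bars lie between 2415 and 2612 FPKM.

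The comparison of mutant with wild type for newGene_203 rests on that library. Over all libraries its mean was 588 ± 482 FPKM in the wild-type libraries and 425 ± 23.3 FPKM in the mutant libraries (SD, n = 3 per group), a log2 fold change of -0.18 (SE 0.43, limma adjusted p 0.819). Without wild-type replicate 2 the log2 fold change was 0.45, with an adjusted p of 0.00921, while leaving out any other library kept it negative. The adjusted p ranged from 0.00921 to 0.897 over its alternatives. Which of the values describes wild-type seedlings cannot be told from 3 libraries.

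The next loci in order of level were steady between replicates. newGene_287 had 470.0, 451 and 520.1 FPKM in wild type, against 424, 416 and 365 FPKM in mutant libraries. All mutant values lay below all wild-type values, but the difference just missed the threshold (log2 fold change -0.26, 95% interval -0.43 to -0.08, limma adjusted p 0.0543, range 0.0432 to 0.143 over its alternatives). newGene_136 had 124, 141 and 147 FPKM in the wild-type libraries and 127, 129 and 120.2 FPKM in the mutant. newGene_78 had 82.1, 85.9 and 96.4 FPKM against 86.2, 85.3 and 81.7 FPKM, and newGene_107 had 78.9, 77.4 and 86.3 FPKM against 88.2, 83.0 and 75.0 FPKM. In these 3 loci the groups overlapped and no change was called, with 95% intervals of the log2 fold change of -0.28 to 0.03, -0.21 to 0.09 and -0.14 to 0.18. Over the 6 libraries newGene_78 ran from 81.7 to 96.4 FPKM and newGene_107 from 75.0 to 88.2 FPKM, so their ranges overlapped in part.

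Replicates of the new loci spread more widely than those of AT loci of like level. For loci with a mean of 1 to 5 FPKM the median ratio of SD to mean was 22.1% in wild type and 16.5% in the mutant for the 99 new loci, and 14.9% and 13.6% for 4175 AT loci. Between 5 and 20 FPKM it was 9.16% and 10.6% for 53 new loci and 7.36% and 6.76% for 7242 AT loci. At 20 FPKM or more it was 8.43% and 6.47% for 19 new loci and 5.44% and 4.47% for 6476 AT loci. The new loci lay higher in each of these 6 pairs of medians, which were not tested; FPKM is scaled to length, and the lengths and read numbers of the new loci are unknown. An SD above 50% of the mean in wild type was seen in 16 new loci with a mean of at least 1 FPKM (9.36%). The share of such AT loci was 1.33%, but these shares are not matched for level. At 1 to 5 FPKM, which held 13 of the 16, they were 13.1% and 4.8%.

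**Figure D3:**
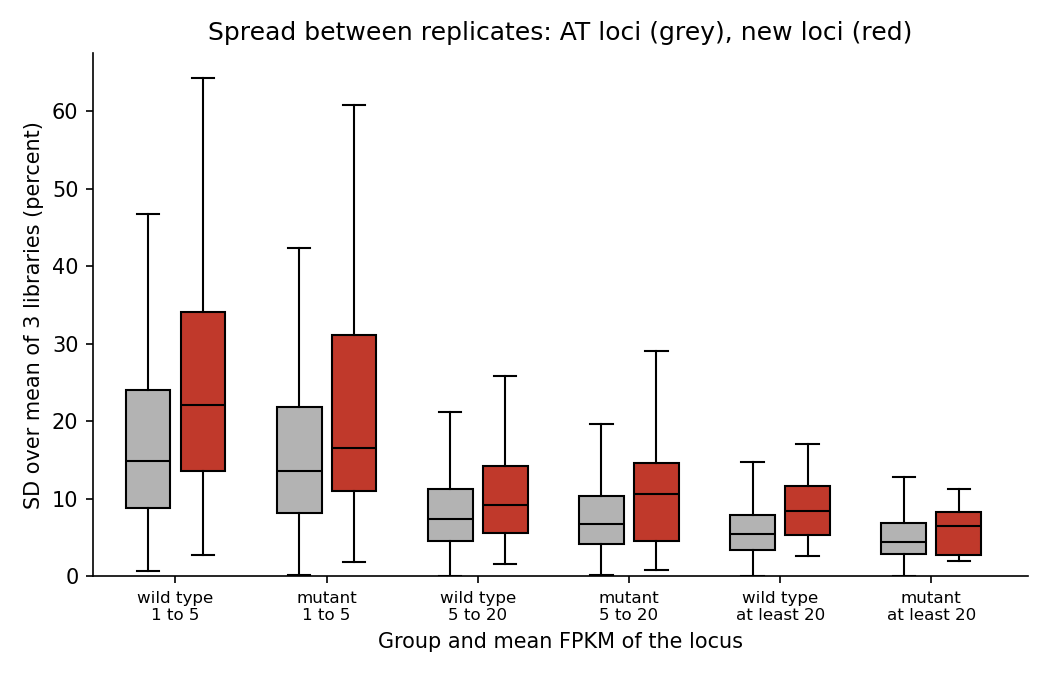
SD over mean of the 3 libraries of a group, in percent (y axis), for AT loci (grey) and new loci (red) with a mean of 1 to 5, 5 to 20 and at least 20 FPKM (x axis); boxes span the quartiles, the line is the median, whiskers reach the farthest value within 1.5 box lengths, and points beyond are not drawn. The red medians lie above the grey ones in all 6 pairs, from 22.1% against 14.9% to 6.47% against 4.47%.

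Part of this spread came from single libraries. In 4 of 171 new loci with a mean of at least 1 FPKM (2.34%) and in 0.319% of such AT loci, the highest library was at least 2 times the next. These shares are not matched for level. The 4 new loci, newGene_203, newGene_289, newGene_365 and newGene_352, had means of 506, 27.1, 3.15 and 1.26 FPKM. Of these 4, 3 were highest in wild-type replicate 2, which held 15 of the 57 AT loci of this kind. Mutant replicate 3 also held 15 of those AT loci, and wild-type replicate 1 held 11. newGene_289 had 7.87, 83.6 and 21.7 FPKM in the wild-type libraries and 12.4, 6.45 and 30.6 FPKM in the mutant, so its values ran over an order of magnitude within a group. newGene_352 had 0.25, 2.81 and 1.06 FPKM in the wild-type libraries and 1.20, 1.29 and 0.954 FPKM in the mutant. newGene_365, named because it completes this count, had 3.06, 2.26 and 1.28 FPKM in the wild-type libraries and 2.44, 2.01 and 7.82 FPKM in the mutant. The groups overlapped in each, and the limma adjusted p was 0.518 for newGene_289, 0.998 for newGene_352 and 0.387 for newGene_365.

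A change was called in 21 of the 171 new loci that had a mean of at least 1 FPKM and were tested. Of these, 7 were higher and 14 lower in the mutant. The test was limma on log2(FPKM + 1), fitted to all 18064 loci of that level and adjusted over them by the Benjamini-Hochberg method, with a threshold of 0.05. The 21 loci are 12.3% of the new loci tested, close to the background of 14.7% over all loci tested. Higher calls made up 4.09% of new loci against 6.27% of all loci tested, and lower calls 8.19% against 8.44%, not matched for level. At 1 to 5 FPKM higher calls were 2.02% of new and 4.57% of AT loci. Lower calls there were 4.04% and 2.3%, and the new shares rest on 2 and 4 loci. At 5 to 20 FPKM the shares were 7.55% and 6.13% higher and 13.2% and 5.48% lower. At 20 FPKM or more they were 5.26% and 7.58% higher and 15.8% and 15.7% lower. The share called in either direction rose with level among AT loci too. At 1 to 5 FPKM it was 6.06% of new and 6.87% of AT loci. It was 20.8% and 11.6% at 5 to 20 FPKM, and 21.1% and 23.3% at 20 FPKM or more. The middle class rests on 11 called new loci of 53, and no difference between new and AT loci was tested. In 7 of the tested new loci, 3 of them called (newGene_24, newGene_112 and newGene_195), the mean of one group was under 1 FPKM, so that the locus passed the filter only through the group where it was high.

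The groups stayed apart, with no overlap of their values, in 59 tested new loci (34.5%), against 35.5% of all loci tested. In 39 of them the mutant was lower and in 20 higher, which is 22.8% and 11.7% of the new loci, against 19.1% and 16.4% of all loci. At 1 to 5 FPKM it was lower in 17.2% of new and 8.41% of AT loci and higher in 10.1% and 17.2%. At 5 to 20 FPKM the shares were 30.2% and 16.5% lower and 15.1% and 16.2% higher. At 20 FPKM or more they were 31.6% and 28.8% lower and 10.5% and 16.3% higher. These differences were not tested. All 21 called loci were among the 59. The median log2 fold change of the tested new loci was -0.06, with 69 above and 102 below 0, while that of all loci tested was -0.00342, with 49.3% above 0. Above 0 were 45.5% of new and 59.9% of AT loci at 1 to 5 FPKM. The shares were 34% and 49.9% at 5 to 20 FPKM, and 31.6% and 42.1% at 20 FPKM or more. At an unadjusted p under 0.05 there were 49 new loci (28.7%), against 30.9% of all loci. The standard error of a new locus had a median of 0.13 on the log2 scale, against 0.08 for AT loci.

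**Figure D4:**
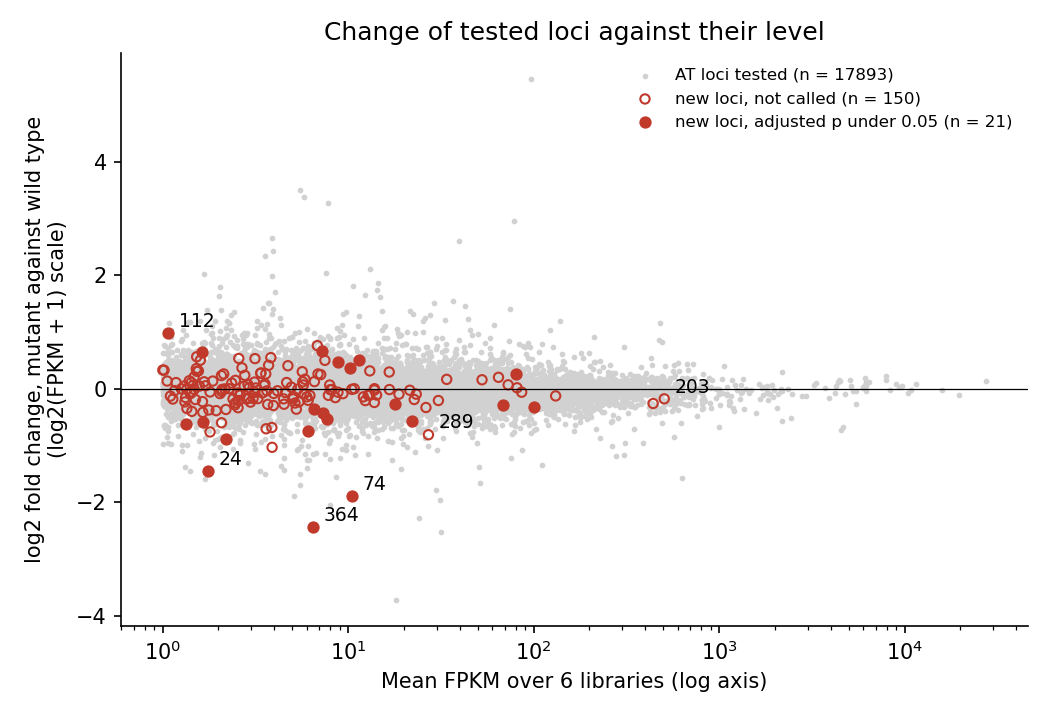
Log2 fold change of the mutant against wild type on the log2(FPKM + 1) scale (y axis) against the mean FPKM over the 6 libraries (log x axis), for the tested AT loci (grey), the 150 new loci that were not called (open red) and the 21 that were (filled red); numbers mark some new loci. newGene_364 at -2.44 and newGene_74 at -1.89 lie farthest below 0 among the new loci, and most called ones lie within 1 of 0.

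The largest change was a fall of newGene_364. It had 12.2, 11.0 and 11.6 FPKM in the wild-type libraries and 1.07, 1.46 and 1.48 FPKM in the mutant, which left 11.5% of the wild-type mean. Each mutant library was far below each wild-type library, and the log2 fold change was -2.44 (SE 0.10, limma adjusted p 3.57e-05). newGene_74 fell from 16.2, 18.4 and 16.1 FPKM to 5.98, 2.97 and 3.05 FPKM, leaving 23.7% of the wild-type mean (log2 fold change -1.89 with SE 0.20; adjusted p 0.00111). Mutant replicate 1 held about as much again as the other mutant libraries, but stayed under all wild-type libraries. Both calls held under all 16 alternatives tried, with adjusted p between 1.00e-05 and 0.00064 and between 0.000121 and 0.00619. The size of both changes depended on the pseudocount. With pseudocounts of 5 and 0.1 the log2 fold change was -1.39 and -3.04 for newGene_364 and -1.30 and -2.13 for newGene_74. The third change of at least 2-fold on the log2(FPKM + 1) scale, in newGene_24, went from 1.27, 3.33 and 4.70 FPKM to 0.637, 0.138 and 0.49 FPKM (log2 fold change -1.45 with SE 0.31; adjusted p 0.0186). Its call did not hold when wild-type replicate 2 (adjusted p 0.0558), wild-type replicate 3 (0.0532) or mutant replicate 2 (0.0615) was left out, the alternatives ran from 0.0052 to 0.0615, and its log2 fold change was -0.56 and -2.59 with pseudocounts of 5 and 0.1. As its mutant mean was 0.422 FPKM, newGene_24 reached the filter of 1 FPKM only through its wild-type values. On the log2(FPKM + 1) scale a change of at least 2-fold was thus called in 3 of 171 new loci (1.75%) and in 0.587% of all loci tested. By level the share was 1.01% of new and 0.886% of AT loci at 1 to 5 FPKM. It was 3.77% and 0.511% at 5 to 20 FPKM, resting on 2 new loci, and 0% and 0.448% at 20 FPKM or more. By the ratio of plain FPKM means it was 7 of the called new loci (4.09% of those tested), against 1.12% of all loci tested. These shares are not matched for level, and the share of AT loci of like level is not given here. The other 4 were newGene_282, newGene_195, newGene_112 and newGene_218, which like newGene_24 had a mean between 1 and 5 FPKM. Of the 7, newGene_24, newGene_195 and newGene_112 passed the filter only through the group where they were high.

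Smaller falls included 4 loci whose call held under each alternative that tested them. newGene_127 had 27.1, 25.5 and 26.6 FPKM in the wild-type libraries and 17.5, 18.0 and 17.3 FPKM in the mutant. Replicates of this locus differed by little, the mutant mean was 66.6% of the wild-type mean, and the limma adjusted p was 0.000863. newGene_336 went from 7.88, 7.61 and 8.14 FPKM to 4.28, 4.35 and 4.20 FPKM, which is 54.3% of the wild-type mean (log2 fold change -0.75 with SE 0.08; adjusted p 0.000977). newGene_282 went from 2.81, 3.12 and 3.47 FPKM to 1.38, 1.36 and 0.972 FPKM (log2 fold change -0.89 with SE 0.13; adjusted p 0.00439). Their groups lay well apart, at low and middle levels. newGene_37, one of the 4 loci above 100 FPKM on average, went from 109, 115 and 112 FPKM to 83.2, 92.4 and 94.3 FPKM (adjusted p 0.011). A pseudocount of 5 gave log2 fold changes of -0.47 for newGene_336 and -0.38 for newGene_282.

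The other 7 falls were called over all 6 libraries but not in every set of 5. newGene_149 went from 9.25 ± 1.31 to 6.08 ± 1.07 FPKM and newGene_346 from 8.59 ± 0.811 to 6.15 ± 0.612 FPKM (SD, n = 3), with limma adjusted p of 0.032 and 0.0227. newGene_195 went from 1.84 ± 0.485 to 0.842 ± 0.211 FPKM and newGene_2 from 2.18 ± 0.609 to 1.11 ± 0.049 FPKM, with adjusted p of 0.0459 and 0.0477. In each of these 4 loci the groups did not overlap, and the ratios of the plain FPKM means, wild type over mutant, were between 1.40 and 2.18. newGene_195 passed the filter of 1 FPKM only through its wild-type values. newGene_111, newGene_224 and newGene_73, which complete the count and were not taken by the naming rule, fell to 75.4%, 81.8% and 81.5% of their wild-type means of 7.51, 19.8 and 74.9 FPKM, with adjusted p of 0.017, 0.0214 and 0.0252.

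Each of these 7 calls was lost when certain libraries were left out. newGene_149 missed the threshold when wild-type replicate 1 (limma adjusted p 0.0935), wild-type replicate 3 (0.0966), mutant replicate 1 (0.0838) or mutant replicate 3 (0.0521) was left out, and newGene_346 missed it without wild-type replicate 1 (0.0564) or 3 (0.0733) and without mutant replicate 1 (0.0612) or 2 (0.0755). newGene_195 lost its call without wild-type replicate 2 (0.111) or 3 (0.139) and without mutant replicates 1 (0.123), 2 (0.13) or 3 (0.056), and newGene_2 without wild-type replicate 2 (0.124) or 3 (0.13) and without mutant replicates 1 (0.117), 2 (0.105) or 3 (0.106). Only wild-type replicate 1 could be left out of newGene_195 and newGene_2 with the call kept. newGene_111 lost its call without wild-type replicate 3 (0.0516) or mutant replicate 1 (0.0618). newGene_224 lost it without wild-type replicate 1 (0.0535) or 3 (0.066) and without mutant replicate 1 (0.0748) or 3 (0.0609), and newGene_73 without wild-type replicate 2 (0.0697) or 3 (0.0607) and without mutant replicate 1 (0.0814) or 2 (0.0902). Over all alternatives the adjusted p ranged from 0.0242 to 0.0966 for newGene_149, 0.0187 to 0.0755 for newGene_346, 0.0313 to 0.139 for newGene_195, 0.0211 to 0.13 for newGene_2, 0.0163 to 0.0618 for newGene_111, 0.0153 to 0.0748 for newGene_224 and 0.016 to 0.0902 for newGene_73. With a pseudocount of 5 the log2 fold changes of newGene_195 and newGene_2 were -0.23 and -0.23, and with 0.1 they were -1.03 and -0.88, against -0.62 and -0.58 with a pseudocount of 1. Other settings also ended calls. newGene_149 missed the threshold with no filter (0.0634) and no mean trend (0.0543), newGene_195 on the TPM scale (0.0551), newGene_2 with a pseudocount of 5 (0.0516), no filter (0.0525) and the TPM scale (0.058), newGene_224 on the TPM scale (0.0503) and newGene_73 with no mean trend (0.0596), all limma adjusted p.

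Of the 7 rises, none reached 2-fold on the log2(FPKM + 1) scale. newGene_112 rose from 0.723, 0.222 and 0.206 FPKM to 2.32, 1.94 and 1.01 FPKM, the largest fitted rise among the called new loci (log2 fold change 0.98, SE 0.23, limma adjusted p 0.0244). All of its wild-type values were under 1 FPKM and all mutant values above, so it passed the filter of 1 FPKM only through the mutant libraries. newGene_218 rose from 0.862, 1.11 and 1.19 FPKM to 2.16, 2.23 and 2.29 FPKM (log2 fold change 0.65 with SE 0.13; adjusted p 0.0126), and newGene_137 from 9.44, 8.50 and 9.96 FPKM to 13.1, 14.1 and 13.9 FPKM (log2 fold change 0.52 with SE 0.08; adjusted p 0.00429). These are the 2 rises whose call held under each alternative that tested them, with adjusted p of up to 0.0482 and 0.0212. The call of newGene_112 did not hold with wild-type replicate 2 left out (adjusted p 0.0645) or with 3 left out (0.0749), and its alternatives ran from 0.0172 to 0.0749. With pseudocounts of 5 and 0.1 the log2 fold change was 0.32 and 2.03 for newGene_112 and 0.25 and 1.02 for newGene_218.

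The remaining 4 rises were of loci at 5 FPKM or more. newGene_242 went from 5.43 ± 1.35 to 9.08 ± 1.32 FPKM (SD, n = 3), newGene_353 from 7.22 ± 0.976 to 10.4 ± 1.22 FPKM, newGene_117 from 8.84 ± 1.22 to 11.7 ± 0.962 FPKM and newGene_216 from 73.2 ± 6.81 to 88.1 ± 2.34 FPKM. Their mutant means were 167%, 143%, 132% and 120.3% of the wild-type means, with limma adjusted p of 0.0279, 0.027, 0.0462 and 0.036. The call of newGene_117 was lost whichever of the 6 libraries was left out (adjusted p 0.0517 to 0.144) and also on the TPM scale, where libraries have the same sum (0.0546), with no filter (0.0806) and with no mean trend (0.0686). That of newGene_216 was lost without wild-type replicate 2 (0.0632) or 3 (0.0728) and without mutant replicates 1 (0.111), 2 (0.0849) or 3 (0.0783). newGene_242 lost its call without wild-type replicate 1 (0.0607) or 3 (0.0589) and without mutant replicate 1 (0.0919) or 3 (0.0818), and newGene_353 without wild-type replicate 1 (0.0658) or 3 (0.0546) and without mutant replicate 1 (0.0711) or 2 (0.0899). With no filter the adjusted p was 0.055 for newGene_216, 0.0587 for newGene_242 and 0.0536 for newGene_353, and with no mean trend it was 0.0778 for newGene_216 and 0.0515 for newGene_242. The ranges over all alternatives were 0.0194 to 0.0919 for newGene_242, 0.0203 to 0.0899 for newGene_353, 0.0349 to 0.144 for newGene_117 and 0.0135 to 0.111 for newGene_216.

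**Figure D5:**
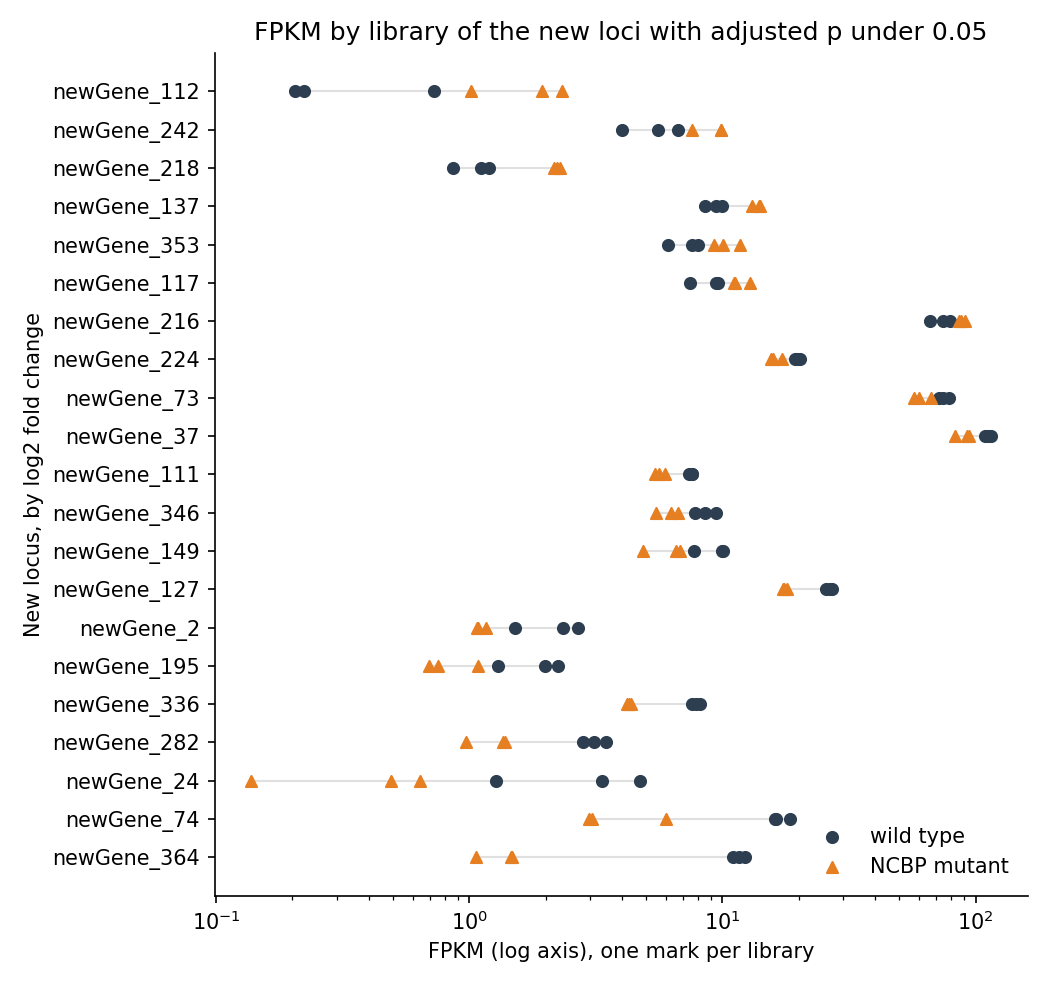
FPKM on a log x axis of the 21 called new loci (rows, ordered by log2 fold change), with one mark per library: dark circles for the 3 wild-type libraries and orange triangles for the 3 mutant libraries. In every row the marks of the groups do not overlap, and the gap is widest for newGene_364, from 11.0 FPKM in the lowest wild-type library to 1.48 FPKM in the highest mutant library.

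How many new loci were called depended on the libraries. Without wild-type replicate 3 the count was 9 of 172 tested (5.23%, against 9.30% of all loci), without mutant replicate 1 it was 9 of 172 (5.23% against 7.31%) and without mutant replicate 2 it was 13 of 171 (7.60% against 7.71%). Of these, 8, 9 and 12 were among the 21. Without wild-type replicate 2, the library that stood apart for newGene_203, the count was 20 of 171 tested (11.7%, against 11.1% of all loci). Of these 20, 14 were among the 21.

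The 56 new loci under the filter were not tested, and 22 of them reached 1 FPKM in at least 1 library. newGene_196, with the highest mean among them at 0.999 FPKM, was the only new locus listed at 0 in all libraries of one group and above 0 in all of the other. It had 0.923, 0.866 and 4.20 FPKM in the wild-type libraries and was listed at 0 in the 3 mutant libraries. With no filter its limma adjusted p was 0.0582, and a 2-sided exact permutation test gave 0.1, the smallest p that 3 against 3 libraries allow. On the TPM scale it passed the filter, through its wild-type values alone and mostly through replicate 3, and only thereby entered the test, where it was called lower. With no filter 4 of the 56 (7.14%) were called. The shares were 2.35% of the 4306 AT loci under the filter and 10.1% of all loci in that fit. The new and AT loci under the filter are unlike sets. Of those AT loci, 758 stayed under 0.1 FPKM in every library, while every new locus reached at least 0.245 FPKM in some library. The 4 called loci are named here after their values were seen. newGene_200 had 0, 0.119 and 0.109 FPKM in the wild-type libraries and 0.83, 0.665 and 1.29 FPKM in the mutant, and newGene_243 had 0.142, 0.0643 and 0.122 FPKM against 0.786, 0.477 and 0.702 FPKM. newGene_64 was also higher in the mutant, at 0.675 to 0.758 FPKM against 0.144 to 0.394 FPKM. newGene_18 was lower, at 0.0262 to 0.209 FPKM against 0.412 to 0.748 FPKM. Their adjusted p was 0.0119, 0.0123, 0.0257 and 0.0267, and each exact permutation p was 0.1.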

How the data were processed

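RNA of 6 whole-seedling libraries was measured by sequencing. The authors deposited FPKM per locus in one table; the submitters' processing notes name HISAT2 with no version. Not given in the sources used here are the genome build, the annotation and the tool behind the FPKM. Columns were assigned to samples by their labels. FPKM divides by library total and length, so abundant genes can move others.

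The fits used log2(FPKM + 1), on which scale changes of low loci are understated. Loci with a mean of at least 1 FPKM were tested 2-sided by limma 3.58.1 (R 4.3.3), using a mean trend, adjusted by Benjamini-Hochberg over all loci tested; every adjusted p is from limma. The fit was also run on data simulated with normal noise of its own estimated variances. Its assumptions hold there, so that run cannot show how well the fit suits these values. The named loci were the 10 largest called changes in each direction, the 6 highest levels, those listed at 0 in one whole group and the 3 widest spreads; others are named to complete a count. Level classes were set after the data were seen, and members, tests and rule with earlier results of these data known. Alternatives were pseudocounts of 0.1 and 5, other filters, TPM and median-ratio scaling, no trend, robust moderation, a replicate block, leaving out each library and, added after seeing the data, loci listed at 0.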

Additional observations from a re-analysis of the deposited data

How the results depend on the processing

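Over 16 alternatives, 8 of the 21 called new loci (newGene_364, newGene_74, newGene_127, newGene_336, newGene_282, newGene_37, newGene_137 and newGene_218) kept their call wherever they were tested, and 13 lost it under at least 1. Leaving out 1 library gave 9 to 20 new loci called (2 to 7 higher and 7 to 13 lower), beside 1321 to 1997 of all loci. It gave 2 to 5 new loci at 2-fold and 67 to 86 with groups apart, where fewer libraries separate more easily. The shares of all loci beside these last counts are not given here. The median change of the new loci was then -0.0755 to -0.042. It was -0.028 with a pseudocount of 5, -0.0313 with no filter, -0.0933 at a mean of at least 5 FPKM and -0.0367 on the TPM scale, and the cause was not tested. Changes of at least 2-fold were called in 7 new loci with a pseudocount of 0.1 and in 5 on the TPM scale. The shares of all loci at 2-fold under these settings are not given here. A mean of at least 5 FPKM left 72 new loci tested, since fewer loci enter, and 32 of them (44.4%) had groups apart. At 5 to 20 FPKM the groups were apart in 45.3% of new and 32.7% of AT loci, and at 20 FPKM or more in 42.1% and 45.1%. Under that filter 18 new loci were called, 25% against 19.1% of all loci, and the difference was not tested. The change of newGene_203 reversed to 0.45 without wild-type replicate 2, and leaving out 1 library gave -0.51 to 0.45. TPM and median-ratio scaling called 18 and 22 new loci, 33.3% and 36.4% of them higher, against 33.3% as deposited; among all loci the higher share went from 42.6% to 53.9% and 46.2%. newGene_287 passed at a mean of at least 5 FPKM (adjusted p 0.0432), with robust moderation (0.0478) and without loci listed at 0 (0.0493).

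Same-numbered libraries did not vary together: their deviations from the group means had correlations of 0.0705, -0.0716 and -0.0596, and 1 of 3 wild-type libraries correlated best with its own number. A replicate block, which such numbers do not justify, called 17 new loci and 1991 of all loci; newGene_117 (adjusted p 0.0916), newGene_149 (0.0604), newGene_195 (0.0553), newGene_2 (0.0666), newGene_224 (0.0505) and newGene_242 (0.0585) were not called under it. As read numbers are unknown, how far depth limits the 99 loci between 1 and 5 FPKM could not be measured.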

Other observations

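Some new loci had values that no single read could give. Besides the listed zeros, 15 values in 6 new loci were above 0 and under 0.001 FPKM. AT loci had such values too, 246 of them in 95 loci. In all, 12 new loci had a 0 or such a value in at least 1 library. Only newGene_237 and newGene_3 among them had a mean of at least 1 FPKM. newGene_237 had 2.46 and 1.54 FPKM in wild-type replicates 1 and 2 and 1.27 and 2.83 FPKM in mutant replicates 1 and 2, but 2.70e-09 and 1.02e-08 FPKM in replicate 3 of wild type and mutant. newGene_3 had 5.77, 3.09 and 6.55 FPKM in wild type and 3.66 and 4.28 FPKM in mutant replicates 1 and 3, against 7.82e-10 FPKM in mutant replicate 2. newGene_48 was under 0.001 FPKM in 5 libraries and at 0.494 FPKM in wild-type replicate 2. These loci were chosen after their values were seen, and no explanation was tested.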
